A study of Mus musculus with 11 samples.

Results

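The erythroid cells of the dissociated mouse lung were described here, defined by their globin RNA. A barcode was counted as erythroid when it held 1000 to 30000 unique molecular identifiers (UMIs, each marking 1 captured RNA molecule), when at most 14% of them came from mitochondrial genes, and when Hbb-bs, Hbb-bt, Hba-a1 and Hba-a2, the adult beta- and alpha-globin genes, made up at least 50% of them. This rule kept 2672 of the 69267 barcodes that passed the depth and mitochondrial limits, or 3.86%, out of 81983 barcodes in the files. The globin share was therefore used to choose the cells and is given below as a description only.

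The study profiled whole lung by droplet 3' RNA sequencing in 11 libraries of 4 genotypes. They were wild type (+/+, 1 library, 18 months), p21 heterozygotes (+/-, p21Het, 3 libraries), mice with 1 p21 allele carrying mTert (+/mTert, p21mTert, 5 libraries) and mice with mTertCD in that place (+/mTertCD, p21mTertCD, 2 libraries). Age was 18 months in all libraries but p21Het replicate 1, labelled 19 months, and p21mTert replicate 1, labelled 20 months. The series title places mTert expression in p21-positive cells; the labels do not say what CD changes. WT replicate 1, p21Het replicate 1 and p21mTert replicate 1 carry no replicate number in their titles and form an earlier set of accessions, called the first deposit here; the other 8 libraries are called the later deposit. The protocol lysed red blood cells for 90 s before loading, so the cells described are those that remained. The labels do not say whether each library came from a separate animal, so p-values measure the spread between these libraries.

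Red cells form in the bone marrow, and the last stage to carry RNA is the reticulocyte, which has lost its nucleus and circulates in blood before its RNA decays. At that stage most messenger RNA codes for globin. Other messenger RNAs code for enzymes of heme synthesis, membrane proteins and factors that remove mitochondria and leftover proteins. The lung is filled with blood, so dissociated lung commonly holds such cells.

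The label was checked with Alas2, which the rule did not use, and with the gene lists below. Alas2, the first enzyme of heme synthesis in red cells, had at least 1 UMI in 2577 of 2672 members (96.4%). In barcodes with under 5% globin it was found in 0.164% to 4.40% per library, at a median depth of 4135 to 6570 UMIs against 1362 to 5750 UMIs for the members. Members carried a median of 74.5 to 161 genes per library, against 1604 to 2103 genes in the other barcodes. Alas2 was also found in most barcodes just outside the rule, in 69.9% of the 166 with 5% to 20% globin, 94.6% of the 129 with 20% to 45% and 100% of those with 45% to 50%, so it did not set the members apart from these. The barcodes near the limit of 50% were few. There were 38 barcodes with 45% to 50% globin, with a median of 1638 non-globin UMIs, and 43 with 50% to 55%, with a median of 1123. Ptprc, the CD45 gene of white blood cells, had a UMI in 42.1% of the former and 27.9% of the latter, and in 3.14% of the 1750 members with over 80% globin. Doublets were not called; 333 barcodes with 5% to 50% globin lie outside the rule. One member barcode was shared between libraries, in 1 of 55 library pairs.

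Erythroid cells were few in the first deposit. The files held 42038434 to 85988955 UMIs per library. WT replicate 1 had 6 members, p21Het replicate 1 had 14 and p21mTert replicate 1 had 29, or 49 in the first deposit against 2623 in the later one. In the later deposit, p21Het replicates 2 and 3 gave 633 and 436 members. The p21mTert replicates 2 to 5 gave 319, 428, 133 and 335, and p21mTertCD replicates 1 and 2 gave 249 and 90. All members together held 10867460 UMIs, of which 1709837 were from genes other than the 4 globins.

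As a share of filtered barcodes, erythroid cells made up 0.110% in WT (95% exact binomial interval 0.0403% to 0.239%, which covers counting error only). The p21Het replicates held 0.225%, 7.43% and 7.43%. The p21mTert replicates held 0.466%, 4.24%, 6.78%, 2.12% and 7.10%, and the p21mTertCD replicates held 3.797% and 1.61%. All 3 libraries of the first deposit lay below 0.5%, and all 8 of the later deposit lay above it. The p21Het mean was 5.03% ± 4.16 (SD, n = 3). For p21mTert the mean was 4.14% ± 2.89 (SD, n = 5), and for p21mTertCD it was 2.70% ± 1.55 (SD, n = 2). The difference between p21mTert and p21Het was -0.887 percentage points (2-sided exact permutation test, p = 0.661, Benjamini-Hochberg adjusted p = 0.911 over 12 tests). The p21Het SD spans both deposits. In the later deposit alone the difference was -2.37 points (exact permutation p = 0.133), where both p21Het libraries lay above all p21mTert and p21mTertCD libraries. Between p21mTert and p21mTertCD it was 1.44 points (exact permutation p = 0.524, adjusted p = 0.911), and 2.36 points in the later deposit (exact permutation p = 0.2). Between p21mTertCD and p21Het it was -2.33 points (exact permutation p = 0.6, adjusted p = 0.911), in a design whose smallest possible p is 0.1, and -4.73 points in the later deposit. The labels give no measure of how many red cells each lung held before lysis.

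**Figure D1:**
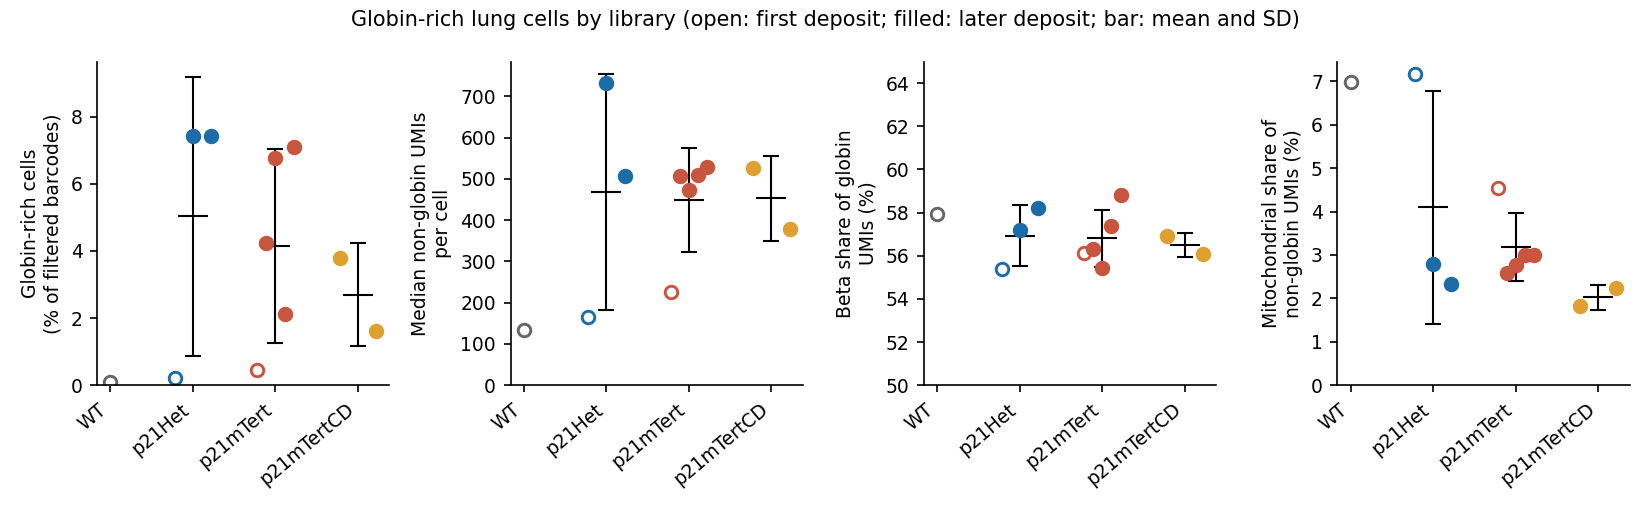
Each point is 1 library; the panels give the share of globin-rich (erythroid) cells among filtered barcodes, the median number of non-globin UMIs per cell, the beta-globin share of globin UMIs (axis from 50%) and the mitochondrial share of non-globin UMIs. Black bars are the group mean and SD; the first-deposit libraries (open) lie at 0.466% or less in the first panel and at 227 UMIs or less in the second.

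Globin RNA itself was divided in much the same way in all libraries. The 4 genes are adult globins: 2 alpha chains (from Hba-a1 and Hba-a2) and 2 beta chains (from Hbb-bs and Hbb-bt) form hemoglobin, and balanced chain supply keeps free chains from precipitating. The alpha genes lie on chromosome 11 (GRCm38, GENCODE M21), Hba-a1 at chr11:32283511-32284465 and Hba-a2 at chr11:32296489-32297298, both on the plus strand. The beta genes lie on chromosome 7, Hbb-bs at chr7:103826534-103828096 and Hbb-bt at chr7:103812524-103813996, both on the minus strand. Hbb-bs gave 45.2% to 50.3% of globin UMIs per library, Hbb-bt 7.65% to 10.2%, Hba-a1 24.1% to 26.2% and Hba-a2 17.1% to 19.2%. The order of the 4 genes was therefore the same in all 11 libraries.

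The split between copies is uncertain, because the copies are nearly the same sequence. In GENCODE M21 the reference transcripts of Hba-a1 (699 bases) and Hba-a2 (554 bases) were identical at 537 of 538 aligned bases, and those of Hbb-bs and Hbb-bt at 580 of 626 aligned bases (92.7%). The sum of the beta pair and the sum of the alpha pair do not depend on how the counted UMIs were split. They would depend on any reads left uncounted because they matched both copies. Such a loss could differ between the alpha and beta pairs, whose identity differs, and it was not measured. The level of the beta share given below is therefore tied to the mapping. The 250 bases before the RefSeq start site, shown as the promoter sequence of the genes that dominate these cells, were read from RefSeq (GRCm38.p6). A set of short motifs were searched on both strands and are in capitals, written as they read on the printed strand. GATAA is the core of sites for GATA factors. CACCC is bound by factors such as KLF1. CCAAT is bound by CCAAT-binding factors. The windows are chr11:32283422-32283671 (Hba-a1, plus strand), chr7:103827929-103828178 (Hbb-bs, minus strand), chr7:103813924-103814173 (Hbb-bt, minus strand) and chrX:150547167-150547416 (Alas2, plus strand).
Hba-a1: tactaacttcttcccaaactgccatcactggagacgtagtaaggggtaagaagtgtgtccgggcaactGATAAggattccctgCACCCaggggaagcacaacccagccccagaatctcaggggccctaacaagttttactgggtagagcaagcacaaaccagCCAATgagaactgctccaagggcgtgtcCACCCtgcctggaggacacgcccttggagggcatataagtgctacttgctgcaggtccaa
Hbb-bs: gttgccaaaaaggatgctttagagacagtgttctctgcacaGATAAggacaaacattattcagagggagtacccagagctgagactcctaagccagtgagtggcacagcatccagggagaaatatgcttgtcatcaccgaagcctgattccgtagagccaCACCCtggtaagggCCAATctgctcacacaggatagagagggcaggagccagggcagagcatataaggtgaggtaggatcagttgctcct
Hbb-bt: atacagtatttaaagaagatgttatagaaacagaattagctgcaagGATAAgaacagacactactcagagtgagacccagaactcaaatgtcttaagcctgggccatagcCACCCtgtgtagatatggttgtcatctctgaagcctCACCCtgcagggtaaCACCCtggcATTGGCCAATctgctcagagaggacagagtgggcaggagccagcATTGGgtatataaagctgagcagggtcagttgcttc
Alas2: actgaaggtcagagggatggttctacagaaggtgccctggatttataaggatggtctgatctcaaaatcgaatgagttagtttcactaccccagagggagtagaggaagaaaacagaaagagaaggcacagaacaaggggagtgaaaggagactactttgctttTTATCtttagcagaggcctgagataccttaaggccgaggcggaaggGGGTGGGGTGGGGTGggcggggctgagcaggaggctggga

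Of the 32851 mouse promoters of that length, GATAA was found on either strand in 22.6%, CACCC in 52.0% and CCAAT in 33.85%. Hba-a1, Hbb-bs and Hbb-bt each held GATAA once, at 182, 209 and 204 bases before the start. CACCC was found 2 times in Hba-a1, 1 time in Hbb-bs and 3 times in Hbb-bt, and CCAAT 1, 1 and 3 times. The Alas2 window held GATAA once, CACCC 3 times in adjoining letters, read on the other strand, and no CCAAT. The Hba-a2 window is not printed, since it shares an unbroken run of 247 bases with that of Hba-a1. The Hbb-bs and Hbb-bt windows were 73.3% identical over 243 aligned bases. These matches describe letters in the reference and were not measured in the cells.

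The beta share of globin UMIs was 57.9% in WT. The p21Het libraries had 55.4%, 57.2% and 58.2%, the p21mTert libraries 56.1%, 56.3%, 55.4%, 57.4% and 58.8%, and the p21mTertCD libraries 56.9% and 56.1%. The values of all groups overlapped. The mean was 56.9% ± 1.43 (SD, n = 3) for p21Het, 56.8% ± 1.32 (SD, n = 5) for p21mTert and 56.5% ± 0.577 (SD, n = 2) for p21mTertCD. p21mTert differed from p21Het by -0.125 points (exact permutation p = 0.911, adjusted p = 0.911) and from p21mTertCD by 0.313 points (exact permutation p = 0.762, adjusted p = 0.911). Between p21mTertCD and p21Het the difference was -0.438 points (exact permutation p = 0.8, adjusted p = 0.911). Within a library, the middle 90% of cells spanned for example 47.1% to 65.3% in p21Het replicate 2 and 50.9% to 67.0% in p21mTert replicate 5.

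Other globins were close to absent. Hbq1a and Hbq1b, theta globins of unsettled function, had 114 and 164 UMIs in all members and mean levels of 75.8 and 117 CPM in the later deposit. CPM is here the count per 1000000 UMIs outside the 4 globin genes, a scale on which 3' UMIs can be compared between genes. Hbb-y, the embryonic beta-like globin, had 8 UMIs, 6 of them in p21mTert replicate 5. Hbb-bh1, Hbb-bh2 and Hba-x had 0 UMIs, which allows up to 3 of the 1709837 non-globin UMIs.

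Outside the globins, members held a median of 133.5 non-globin UMIs in WT. The p21Het replicates held 164.5, 732 and 506 and the p21mTert replicates 227, 508, 473.5, 510 and 529. For p21mTertCD the mean of its 2 libraries was 452.5, the lower being 379. At 732, p21Het replicate 2 was the highest library, and its median globin share was 72.3%, against 81.5% to 92.6% elsewhere. On the log2 scale the group means differed by 0.13 for p21mTert against p21Het (exact permutation p = 0.839, adjusted p = 0.911), by -0.05 for p21mTert against p21mTertCD (exact permutation p = 0.857, adjusted p = 0.911) and by 0.18 for p21mTertCD against p21Het (exact permutation p = 0.9, adjusted p = 0.911). In the later deposit alone the 3 differences were -0.27, 0.18 and -0.45, each opposite in sign.

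One gene model held much of this RNA. Gm42418 (chr17:39846958-39848788, plus strand) is annotated as a long noncoding RNA and lies over ribosomal RNA sequence in this build. AY036118 (chr17:39847113-39848035, minus strand) overlaps it on the other strand, so their reads cannot be told apart where strand was not counted. Gm42418 made up 13.6% of non-globin UMIs in WT. It made up 15.7%, 56.8% and 43.6% in the p21Het replicates, 10.3%, 53.7%, 50.6%, 28.8% and 32.3% in the p21mTert replicates and 56.9% and 46.8% in the p21mTertCD replicates. The later deposit was higher in every library (46.2% ± 10.7, SD, n = 8) than the first (13.2% ± 2.73, SD, n = 3), and the same held in barcodes with under 5% globin, at 8.34% ± 3.71 against 0.593% ± 0.0318. The deposits hold different genotypes in different proportions, so a level set across them also compares deposits. A level in CPM falls where Gm42418 rises. Gm42418, AY036118 and Lars2, called the rRNA-related genes here, held 49.4% of members' non-globin UMIs in the later deposit. In the other barcodes they held 8.69%. Levels in CPM are thus lowered in members, and a lower level in members can turn when these genes are removed from the totals. Some comparisons are also given that way.

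**Figure D2:**
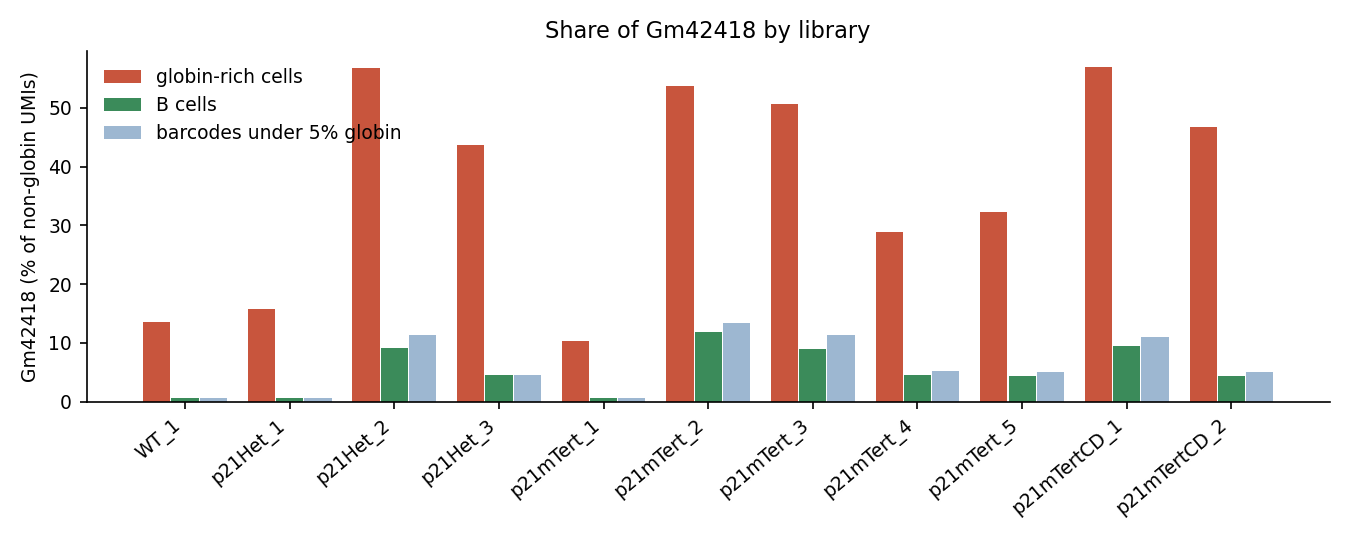
Bars give Gm42418 as a percentage of non-globin UMIs in each library for the globin-rich cells, for B cells (at least 5 UMIs of Cd79a, Cd79b and Ms4a1) and for all barcodes with under 5% globin. In all 11 libraries the globin-rich cells had the highest bar, and the 3 first-deposit libraries were the lowest for each cell group.

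Heme synthesis was carried by its first and last enzymes. Alas2 reached 17414 ± 4709 CPM (SD, n = 8) in the later deposit, against 2.31 CPM in barcodes with under 5% globin. Its level was 13084 and 22415 CPM in p21Het replicates 2 and 3, 12975, 13726, 16882 and 20602 CPM in p21mTert replicates 2 to 5, and 14513 and 25115 CPM in p21mTertCD. In CPM the groups overlapped. With the rRNA-related genes out of the total, all later p21mTert libraries lay below the later p21Het and p21mTertCD libraries. On that scale p21mTert replicate 1, of the first deposit, lay above the later p21Het libraries. Per 1000 globin UMIs, Alas2 had 2.98 ± 0.782 UMIs in the later and 3.04 ± 0.361 in the first deposit, so on that scale the deposits overlapped. Fech, which inserts iron into heme, had 3048 ± 715 CPM. The middle enzymes were far lower: Urod had 166 CPM, Cpox 45.8 CPM, Alad 16.9 CPM, Ppox 7.67 CPM and Uros 3.602 CPM. Of the 8 enzymes, 4 were higher than in the other barcodes in every later library. In CPM, a scale that the rRNA-related genes lower in members, Alad, Uros and Ppox had lower means than there. These and the following comparisons with other barcodes describe the chosen cells and carry no test, since the rule picked the cells by their RNA.

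For iron, Slc25a37 (mitoferrin), the mitochondrial iron importer, had 3477 ± 846 CPM against 23.6 CPM in the other barcodes. The light ferritin chain gene Ftl1 had 7909 ± 1755 CPM against 2915 CPM, while the heavy chain gene Fth1 had 3934 ± 684 CPM against 5261 CPM. With the rRNA-related genes out of both totals, the mean of Fth1 was higher in members. Tfrc, the transferrin receptor, had 74.1 CPM and Slc11a2, an iron transporter, 5.33 CPM.

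Among 16 membrane and skeleton genes, 11 were higher than in the other barcodes in each of the 8 later libraries. Slc4a1 (band 3), the anion exchanger of the red cell, had 1460.0 ± 525 CPM against 0.296 CPM. Epb41, protein 4.1 of the membrane skeleton, had the highest level of the list with 5699 ± 1165 CPM. Epb42 had 109 CPM, Sptb (beta spectrin) 72.4 CPM and Ank1 65.8 CPM. Slc4a1 was 2031 and 1598 CPM in p21Het replicates 2 and 3, 1050, 918, 2156 and 1831 CPM in p21mTert replicates 2 to 5, and 767 and 1328 CPM in p21mTertCD. In CPM the highest value was in p21mTert and the lowest in p21mTertCD, and p21mTert overlapped both other groups. With the rRNA-related genes out of the total, the highest value was in p21Het replicate 2, and the lowest library and the overlaps stayed.

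**Figure D3:**
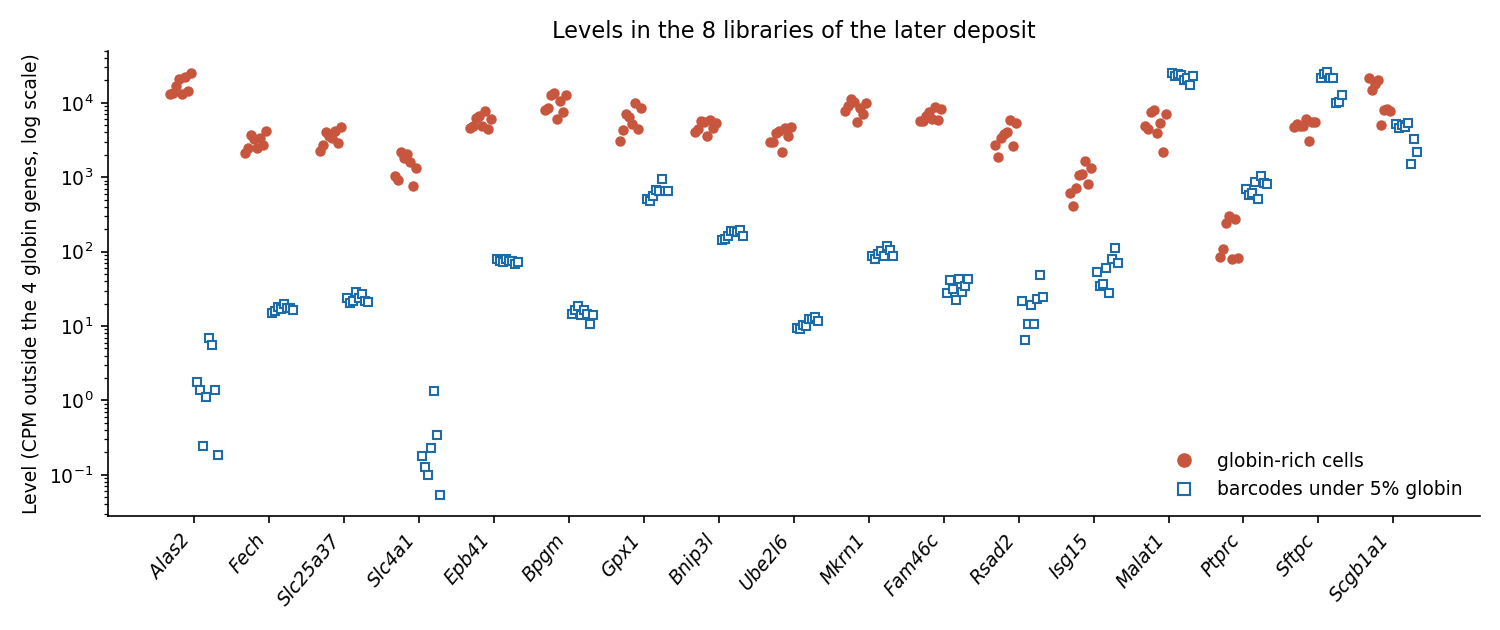
Levels in CPM (counts per 1000000 UMIs outside the 4 globin genes, log axis) of 17 genes in the 8 later libraries, in globin-rich cells (filled) and in barcodes with under 5% globin (open); 2 values of 0 are not drawn. The genes from Alas2 to Isg15 lie above the other barcodes in each library, whereas Malat1, Ptprc and Sftpc lie below.

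Genes that clear organelles and proteins were among the highest. Mkrn1, a ubiquitin ligase, had 8655 ± 1824 CPM, and Ubb, a ubiquitin gene, 6614 ± 2592 CPM. Bnip3l (Nix), the receptor by which reticulocytes shed mitochondria, had 4903 ± 830.0 CPM against 172 CPM in the other barcodes. Ube2l6, a conjugating enzyme for ubiquitin and ISG15, had 3651 ± 896 CPM, Ube2o, which marks ribosomal proteins for removal in reticulocytes, 2537 ± 734 CPM, and the autophagy gene Gabarapl2 2229 ± 655 CPM. Ulk1, an autophagy kinase, had 11.8 CPM and Trim58 had 5 UMIs in all. Of 14 genes on this list, 11 were higher than in the other barcodes in all 8 later libraries.

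In redox and glycolysis, Bpgm, which makes the 2,3-bisphosphoglycerate that lowers oxygen affinity, had 9926 ± 2820 CPM against 14.8 CPM. Gpx1, glutathione peroxidase, had 6168 ± 2376 CPM, Prdx2 1961 ± 628 CPM and Cat (catalase) 1021 ± 322 CPM. Hk1 and Pgk1, of glycolysis, had 12.1 and 22.2 CPM, below the other barcodes, and Pklr, the red cell pyruvate kinase gene, had 0 UMIs, which allows up to 3 of 1709837. Among genes chosen as typical of late reticulocytes, Fam46c had 6831 ± 1234 CPM, Car2 (carbonic anhydrase) 2380 ± 1036 CPM and Isg20 2214 ± 709 CPM. Epb41l1 and Nfix on the same list were lower than in the other barcodes, at 2.28 and 21.95 CPM.

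Genes of earlier stages were near the floor. Kit had 19 UMIs, Epor (erythropoietin receptor) 1, Gata1 9, Klf1 1 and Gfi1b 0 UMIs over all 2672 members. Of 12 early erythroid and progenitor genes, 8 were lower than in the other barcodes in every later library and 0 were higher. Among the 9 listed erythroid transcription factors, Lmo2 (192 CPM) and Foxo3 (94.7 CPM) had the highest levels. Of 12 proliferation genes, Ube2c alone was higher in all later libraries, with 593 ± 185 CPM against 11.3 CPM, whereas Top2a had 15 UMIs, Cdk1 3 and Ccnb1 0. Malat1, an RNA kept in the nucleus, had 5407 ± 1987 CPM against 22471 CPM in the other barcodes. With each cell thinned to 1000 UMIs, Malat1 was found in 16.7% to 49.8% of members per library and in 96.5% to 100% of B cells; unthinned, it was found in 16.7% to 78.2% and 97.7% to 100%. The thinning kept globin UMIs, so a thinned member held far fewer non-globin UMIs than a thinned B cell. The 2 shares are therefore not at equal non-globin depth. The highest thinned member share, 49.8%, was in p21Het replicate 2, which also had the lowest median globin share, 72.3%.

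Ranked by the smallest ratio over the 11 libraries of the level in members to that in barcodes with under 5% globin, among 608 genes with at least 100 CPM, the 15 leading genes included Alas2, Slc4a1, Rec114, Hbq1b, Bpgm, Ube2l6, Fam46c, Fech, Ube2o, Slc25a37, Fam220a and Mkrn1. Only 141 of the 608 genes had a UMI in all 11 libraries, WT with its 774 non-globin UMIs included, and the others could not rank. Tspo2 and Trim10, for example, had 307 and 268 CPM in the later deposit, against 0.0776 and 0.114 CPM in the other barcodes, but 0 UMIs in WT. Alas2 was at least 1910-fold higher in every library and Mkrn1, the last of the 15, at least 64.6-fold. Where the other barcodes of a library held under 3 UMIs, 3 per library were used. Rec114, a gene of meiotic recombination, had 182 and 430 CPM in p21Het replicates 2 and 3, 684, 510, 492 and 491 CPM in p21mTert replicates 2 to 5 and 387 and 677 CPM in p21mTertCD. With the rRNA-related genes out of the total, the later p21Het and p21mTert libraries overlapped. In the other barcodes Rec114 stayed at 0.0202 to 0.442 CPM.

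The globin share of a cell marked a gradient among the members, which is part of the rule and is described without a test. Cells were grouped into 50% to 70%, 70% to 80%, 80% to 90% and 90% to 100% globin within each later library, using library bins with at least 20 cells (4, 5, 8 and 7 libraries). Gm42418 held 492.8 ± 100.5, 415 ± 14.4, 280.1 ± 32.5 and 158 ± 22.04 UMIs per cell along these bins (mean ± SD over libraries). Slc4a1 held 1.14 ± 0.486, 1.27 ± 0.599, 1.07 ± 0.808 and 0.295 ± 0.228 UMIs per cell. Alas2 held 8.35 ± 2.20, 11.5 ± 3.88, 11.03 ± 3.29 and 8.80 ± 2.65. The median of all non-globin UMIs per cell went from 825 to 682, 543 and 353 along the bins. As a share of non-globin UMIs, Gm42418 was 48.8% ± 12.9, 57.2% ± 1.64, 49.2% ± 7.11 and 42.1% ± 5.88, and Alas2 was 0.858% ± 0.369, 1.57% ± 0.501, 1.91% ± 0.482 and 2.31% ± 0.512, so the 2 scales gave different pictures. UMIs of the other-lineage markers described below went from 23.2 ± 8.50 to 11.9 ± 3.90 per cell over the same bins. p21Het replicate 2 had 41.9% of its members in the lowest bin.

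**Figure D4:**
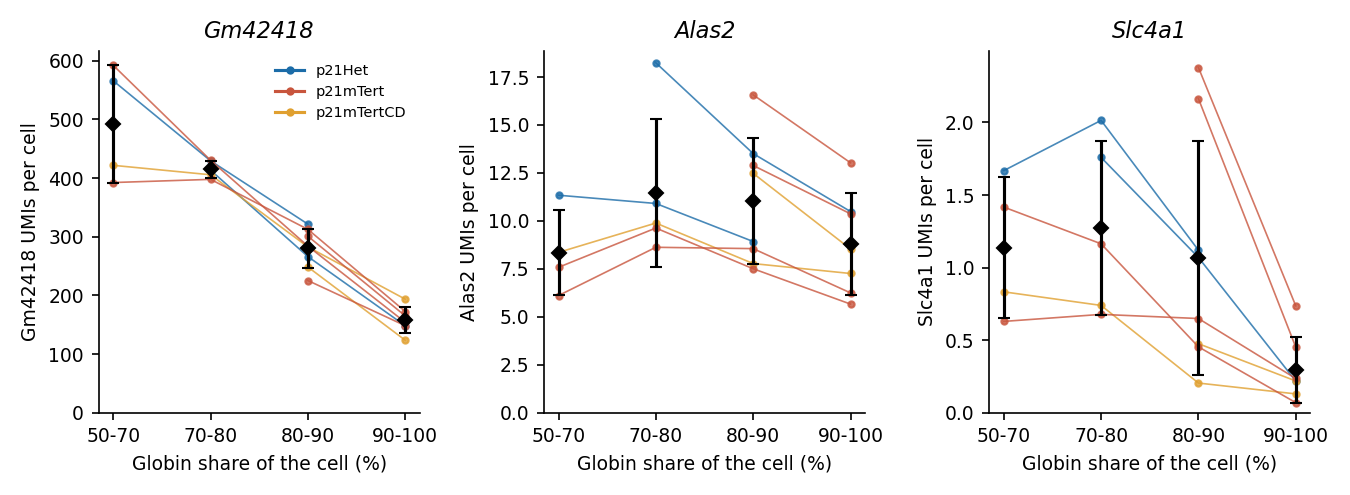
UMIs per cell of Gm42418, Alas2 and Slc4a1 against the globin share of the cell, for the later libraries (lines, library bins with at least 20 cells), with the mean and SD over libraries (black). Mean Gm42418 goes from 492.8 to 158 UMIs per cell and Slc4a1 from 1.14 to 0.295. Different libraries enter each bin.

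RNA of other cell types was present in nearly every member. Over 6 marker lists of immune cells, neutrophils, platelets, endothelium, epithelium and mesenchyme, 2578 members (96.5%) held at least 5 UMIs and 472 (17.7%) at least 20. The latter were uneven between libraries. They were 104 of 319 members in p21mTert replicate 2 and 120 of 335 in p21mTert replicate 5, but 37 of 436 in p21Het replicate 3 and 3 of 90 in p21mTertCD replicate 2. In the bin of 90% to 100% globin, Scgb1a1 held 6.90 and Sftpc 2.37 of a mean of 11.9 such UMIs per cell. These markers made up 1.79% to 6.52% of members' non-globin UMIs and 4.74% to 7.33% of those in the other barcodes. Of 18 immune genes, 17 were lower in members in every later library, with a summed level of 3075 to 5456 CPM against 16073 to 19730 CPM. Ptprc had 148 CPM against 745 CPM. Platelet markers summed to 4.21 to 170 CPM against 57.5 to 312 CPM, and Pf4, a platelet granule protein, had 37.2 CPM against 88.9 CPM. Epithelial markers summed to 12379 to 27975 CPM against 14457 to 37375 CPM. With the rRNA-related genes out of both totals, the epithelial sum was higher in members in most later libraries. Sftpc, surfactant protein C of alveolar type 2 cells, was lower in members (5016 ± 893 against 18514 CPM), while Scgb1a1 and Scgb3a2, secretoglobins of club cells, had higher means and were higher in 7 of 8 libraries (12933 ± 6446 against 3996 CPM, and 272 ± 102 against 86.5 CPM). The part of this RNA in the results below was not tested beyond the fits without the members that held most of it.

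**Figure D5:**
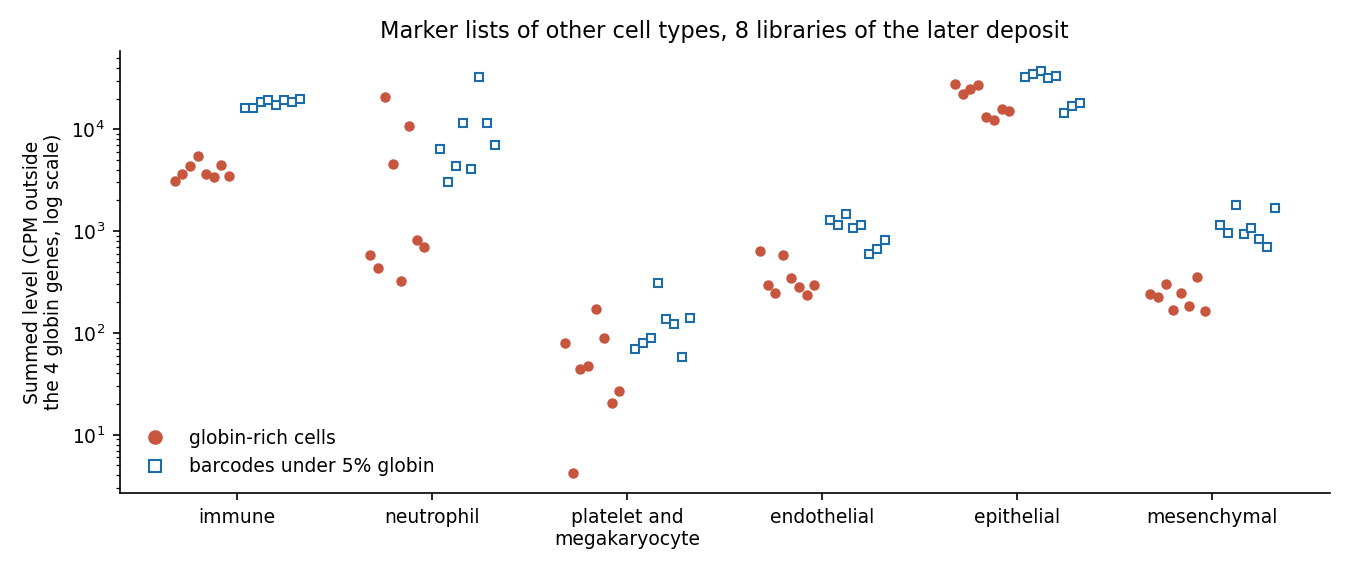
Summed level of 6 marker lists of other cell types in CPM (log axis) in each later library, in globin-rich cells (filled) and in barcodes with under 5% globin (open). Immune, endothelial and mesenchymal sums are lower in globin-rich cells; the neutrophil sum spans 327 to 20546 CPM in them.

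Mitochondrial genes gave 6.98% of non-globin UMIs in WT. The p21Het libraries had 7.17%, 2.79% and 2.32%, the p21mTert libraries 4.54%, 2.58%, 2.78%, 3.00% and 2.99%, and the p21mTertCD libraries 1.82% and 2.23%. All 5 p21mTert libraries lay above both p21mTertCD libraries, and the first deposit lay above the later one (6.23% ± 1.46, SD, n = 3, against 2.56% ± 0.414, SD, n = 8). The difference between p21mTert and p21mTertCD was 1.16 points (exact permutation p = 0.143, adjusted p = 0.911). With the rRNA-related genes out of the total it was 0.710 points (exact permutation p = 0.333). p21mTert differed from p21Het by -0.914 points (exact permutation p = 0.696, adjusted p = 0.911), and by 0.282 points in the later deposit alone. p21mTertCD differed from p21Het by -2.07 points (exact permutation p = 0.4, adjusted p = 0.911). In the other barcodes the share was 3.59% to 4.83% in the later and 6.22% to 6.42% in the first deposit. There the p21mTert libraries had 6.22%, 4.78%, 4.80%, 4.83% and 4.44%, and the p21mTertCD libraries 3.59% and 4.245%. All p21mTert libraries thus lay above both p21mTertCD libraries in the other barcodes as well. None of the 12 tests of the 4 measures (share of cells, non-globin UMIs, beta share, mitochondrial share) passed the adjusted threshold of 0.05.

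The engineered locus could not be followed in these cells. Cdkn1a, the p21 gene (chr17:29090976-29100727), had 34 UMIs in all members. WT had 0 UMIs, the p21Het libraries 0, 17 and 7, the p21mTert libraries 0, 2, 1, 3 and 2, and the p21mTertCD libraries 2 and 0. Its level was 16.4 CPM in the later deposit, against 161 CPM in the other barcodes. Tert (chr13:73626911-73649843) had 1 UMI each in p21Het replicate 2 and p21mTert replicate 3 and 0 elsewhere. At this depth these counts do not check the genotype labels. Of 10 genes that p53 activates, all were lower in members than in the other barcodes in every later library, as were 17 of 18 immune, 7 of 8 endothelial and 7 of 8 mesenchymal markers. The 10 include Eda2r, which had 0 UMIs in members, and the rRNA-related genes lower CPM in members. The share of all genes that were lower in this way was not counted, so the count is not a result about p53 targets.

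To ask whether genotype changed the RNA of erythroid cells, UMIs were summed per library and fitted with edgeR over 9 libraries, leaving out WT and p21Het replicate 1, which had under 20 members; p21Het was thus represented by replicates 2 and 3. Of 1446 genes tested, 1 passed an adjusted p of 0.05 between p21mTert and p21Het (0.0692%), and 117 had an unadjusted p under 0.05. Between p21mTert and p21mTertCD 0 passed (0%), with 109 at an unadjusted p under 0.05, and between p21mTertCD and p21Het 0 passed (0%), with 63. DESeq2 called 4, 0 and 0 genes. By default it sets genes of low mean count aside before the adjustment. Its adjusted p values therefore cover fewer than the 1446 genes and are not on the same footing as those of edgeR. None of the 109 tested genes on the fixed lists passed in this edgeR fit.

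Wfdc17, which codes for a secreted protein known from myeloid cells (chr11:83703991-83706268), was lower in p21mTert. It had 60 and 151 UMIs in p21Het replicates 2 and 3, 1, 5, 11, 6 and 13 UMIs in the p21mTert replicates and 35 and 3 in p21mTertCD. In CPM these were 118 and 580, 153, 26.5, 46.3, 67.0 and 56.02, and 242 and 81.3. One p21mTert library, replicate 1 with 1 UMI, lay above the lower p21Het library in CPM. With the rRNA-related genes out of the total, that library lay below both p21Het libraries. The log2 fold change was -3.06 ± 0.51 (SE; edgeR adjusted p = 0.0229). In the other barcodes of the same libraries Wfdc17 was 366 and 1170 CPM in p21Het, 317, 183, 132, 132 and 283 CPM in p21mTert and 703 and 221 CPM in p21mTertCD, so it was also lower in all p21mTert libraries than in both p21Het libraries there. The summed neutrophil markers of the members were 327 and 10727 CPM in p21Het replicates 2 and 3 and 438 to 20546 CPM in p21mTert; their part in the result was not tested. The call was lost without p21Het replicate 3 (log2 fold change -1.63, edgeR adjusted p = 0.424), without p21mTert replicate 1, which is the later deposit alone (-2.92, adjusted p = 0.246), and without p21mTert replicate 2 (-2.91, adjusted p = 0.215), 3 (-3.10, adjusted p = 0.0825) or 5 (-2.99, adjusted p = 0.0972). It was also lost with a globin minimum of 80% (-1.69, adjusted p = 0.765) and without the members with 20 or more other-lineage UMIs (-1.82, adjusted p = 0.621). With a term for deposit (-3.08, adjusted p = 0.128) and without the rRNA-related genes (-2.95, adjusted p = 0.0527) it was lost as well. DESeq2 gave a log2 fold change of -2.97 with no adjusted p, so the gene could not be called there. Over the alternatives that gave one, the adjusted p ran from 3.791e-07 to 0.765.

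Erythroid genes did not pass the main edgeR test in any contrast. For p21mTert against p21Het, DESeq2 called 1 of 64, against 4 of all 1446 genes. With no filter on low counts edgeR called 1 of 84, against 16 of all 13746 genes. Both erythroid calls were Rsad2, which is on these lists and is described with the interferon-response genes below. Over the 8 lists of erythroid function (89 genes), 64 passed the filter on low counts and 0 were called. Between p21mTert and p21Het their median log2 fold change was -0.40, against -0.05 over all 1446 genes; 59 of 64 were below 0 and 18 had an unadjusted p under 0.05 (28.1%, against 8.09% of all genes). Without further scaling for composition both medians moved up, to 0.17 for the erythroid genes and 0.38 for all genes, and 0 erythroid genes had an unadjusted p under 0.05. With a globin minimum of 80% the medians were 0.03 and -0.03, with 3.85% of erythroid genes at an unadjusted p under 0.05 against 4.11% of all genes. Without the members with 20 or more other-lineage UMIs the medians were 0.06 and 0.01, and the shares 6.67% and 4.61%. The share of erythroid genes was 6.67% with p21Het replicate 1 kept, against 5.72% of all genes, and 29.7% with a term for deposit, against 9.96%. Leaving out 1 library at a time, it ran from 12.5% (without p21Het replicate 2) and 14.1% (without p21Het replicate 3) to 28.1% (without p21mTert replicate 4), above the share of all genes in each of these fits. For p21mTert against p21mTertCD the median was -0.21, against -0.05 over all genes, and its sign was not stable: it was 0.17 with a globin minimum of 30% and 0.14 with one of 80%, 0.23 without the members with 20 or more other-lineage UMIs and 0.14 without p21mTertCD replicate 2. It was also above 0 with no scaling (0.38) and with no filter on low counts (0.16), where the median of all genes was 0.48 and 0.65. For p21mTertCD against p21Het the median was -0.19, against -0.05 over all genes, and 40 of 64 were below 0. Of the erythroid genes, 12.5% had an unadjusted p under 0.05, against 4.36% of all genes. With p21Het replicate 1 kept the shares were 6.67% and 4.05%, and the median was -0.03. The median was -0.65 without p21mTertCD replicate 2 (all genes -0.08) and -0.32 without p21mTertCD replicate 1 (all genes -0.66). It was -0.54 at 30% globin (all genes -0.08) and -0.82 when no filter was applied (all genes -0.59). Alas2 had a log2 fold change of -0.42 ± 0.26 (edgeR adjusted p = 0.711) between p21mTert and p21Het, and Slc4a1 -0.70 ± 0.27 (adjusted p = 0.504).

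Among 10 interferon-response genes, Rsad2 (viperin) and Isg15, a ubiquitin-like modifier, were abundant in erythroid cells. Rsad2 had 3699 ± 1374 CPM in the later deposit, against 20.7 CPM in the other barcodes, and Isg15 964 ± 402 CPM against 59.4 CPM. Irf7 was also higher than in the other barcodes in all 8 later libraries (88.1 CPM against 34.1 CPM), whereas Ifi27l2a, Bst2, Ifit3, Ifi208 and Oasl2 had lower means than there. Isg15 was 1101 and 1637 CPM in p21Het replicates 2 and 3, 306 (2 UMIs), 620, 404, 715 and 1086 CPM in the p21mTert replicates and 822 and 1328 CPM in p21mTertCD. Every p21mTert library lay below both p21Het libraries. The log2 fold change was -1.43 ± 0.35 (edgeR adjusted p = 0.256; DESeq2 -1.32, adjusted p = 0.0355). Isg15 was at -1.0 with no scaling for composition (edgeR adjusted p = 0.757), at -0.98 with a globin minimum of 80% (adjusted p = 0.765), at -1.0 without the members with 20 or more other-lineage UMIs (adjusted p = 0.926) and at -1.13 with p21Het replicate 1 kept (adjusted p = 0.690). Rsad2 was 4019 and 5836 CPM in p21Het, 6576, 2683, 1845, 3363 and 3861 CPM in p21mTert and 2619 and 5364 CPM in p21mTertCD. Here p21mTert replicate 1, with 43 UMIs of Rsad2, lay above both p21Het libraries in CPM. With the rRNA-related genes out of the total, every p21mTert library lay below both. The log2 fold change of Rsad2 was -1.08 ± 0.26 (edgeR adjusted p = 0.256, DESeq2 -0.97 with adjusted p = 0.0355). With no scaling for composition Rsad2 was at -0.44 (edgeR adjusted p = 0.820), at 80% globin -0.47 (adjusted p = 0.9375), without the members with 20 or more other-lineage UMIs -0.62 (adjusted p = 0.997) and with p21Het replicate 1 kept -0.71 (adjusted p = 0.750). With no filter on low counts edgeR called both Isg15 (-1.65, adjusted p = 0.0209) and Rsad2 (-1.34, adjusted p = 0.0440). In the other barcodes Isg15 was 27.9 and 79.5 CPM in p21Het and 34.3 to 61.1 CPM in p21mTert. The other 2 genes that DESeq2 called were Scgb1a1 (1.22, adjusted p = 0.0355), with 4993 and 7999 CPM in p21Het replicates 2 and 3 and 15090 to 22328 CPM in p21mTert, and Eif5, a translation initiation factor (-0.91, adjusted p = 0.0407), named here after its value was seen. In the main edgeR fit Scgb1a1 was at 1.11 ± 0.35 (SE, edgeR adjusted p = 0.275). The epithelial markers, Scgb1a1 among them, summed to 55153 CPM in members of p21Het replicate 1, which was left out of the fit. That sum was 22216 to 32115 CPM in the p21mTert libraries.

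Globin RNA was also found outside the erythroid cells. In barcodes with under 5% globin, the 4 genes made up 0.00752% of UMIs in WT. The p21Het libraries had 0.00815%, 0.187% and 0.222%, the p21mTert libraries 0.0324%, 0.0694%, 0.0750%, 0.0139% and 0.0442%, and the p21mTertCD libraries 0.0595% and 0.00757%. The later p21Het libraries were highest, at 7.43% erythroid cells each. In all filtered barcodes with under 50% globin, which include the 333 with 5% to 50%, the range was 0.00752% in WT to 0.437% in p21Het replicate 2. The same 4 genes define the erythroid cells, so these levels are given as a description with no test against the share of cells.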

How the data were processed

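Single-cell 3' RNA was measured in 11 libraries of mouse lung. The deposited matrices hold raw UMI counts per gene and barcode made by the authors with Cell Ranger on mm10, per the submitters' processing notes; the Cell Ranger version differs between the file headers and the series text and is not given here. The cell filters and normalization that the series text describes had not been applied to these counts, so the same depth and mitochondrial limits were applied here, with no doublet caller, ambient correction or clustering. Counts of members were summed per library. The 4 globin genes of the rule were taken out before library sizes, the filter on low counts and TMM scaling, and edgeR 4.0.16 (quasi-likelihood test, group only, Benjamini-Hochberg adjustment over 1446 genes) was run in R 4.3.3, with DESeq2 1.42.0 as an alternative. The fit was tested on simulated counts. The 4 measures per library were compared by exact permutation tests, adjusted over 12 tests. A library with under 20 members was left out of the fit, which took out WT and p21Het replicate 1. Depth limits precision: members' non-globin UMIs came to 774 to 6539 UMIs per first-deposit library and 36910 to 510553 UMIs per later library, so a gene at 100 CPM stands on under 1 UMI in each first-deposit library.

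Named genes were drawn from the members of 21 lists, the 20 genes of highest level, the 15 with the largest smallest ratio to other barcodes, and up to 5 called genes per direction. The members and lists were chosen with earlier results of these data known. Of 31053 gene identifiers in the files, 30934 matched GENCODE M21, the source of the positions printed; promoter sequences are from RefSeq GRCm38.p6. Ahsp, Hbb-bh0, Tent5c (listed as Fam46c) and Terc were not matched by symbol. WT has 1 library and entered no test. Alternatives were other globin and UMI minimums, other scaling and filters, the later deposit alone, each library left out, members with fewer other-lineage UMIs and a replicate block. Results for some genes that this rule names are not reported here.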

Additional observations from a re-analysis of the deposited data

Results flagged for a closer look

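A pair of values of p21mTert replicate 1 stood apart from the other 4 p21mTert libraries, by a gap that exceeded the 95% limit for 5 values (gap over range above 0.71), among 9 quantities examined in that group; chance flags about 1 in 20 groups. Its median of non-globin UMIs per erythroid cell was 227, against 473.5 to 529 in the others (gap over range 0.869 on the log2 scale). Its mitochondrial share of non-globin UMIs was 4.54%, against 2.58% to 3.00% (gap over range 0.784). That library is the p21mTert library of the first deposit, with 29 members, and WT replicate 1 and p21Het replicate 1 of the same deposit had 133.5 and 164.5 UMIs and 6.98% and 7.17%.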

How the results depend on the processing

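Depth limits the first deposit, whose 3 libraries held 49 members, and the 12 tests of library measures stayed above the adjusted threshold. Each unadjusted p over their alternatives was above 0.05 but one: with a globin minimum of 30% the mitochondrial difference between p21mTert and p21mTertCD was 1.223 points (exact permutation p = 0.04762). Several signs turned. The share of cells, p21mTert minus p21Het, was 0.8833 points with a globin minimum of 80% and 0.212 on the logit scale. For p21mTertCD minus p21Het it was 0.0397 on the logit scale. Without members holding 5 or more other-lineage UMIs, which leaves few cells, the share differences were -0.2152 (p21mTert minus p21mTertCD) and 0.06717 (p21mTertCD minus p21Het). The beta differences were then 0.07433, -0.7377 and 0.812 for p21mTert against p21Het, p21mTert against p21mTertCD and p21mTertCD against p21Het in that order, and the mitochondrial difference, p21mTert minus p21Het, was 0.08907. Beta differences also turned without members holding 20 or more such UMIs (0.008406, p21mTert minus p21Het) and at 80% globin (-0.04068, p21mTert minus p21mTertCD). The log2 non-globin UMIs, p21mTert minus p21Het, came to -0.04547 with no UMI minimum, -0.01867 without the members at 20 or more and -0.27 in the later deposit. The later deposit gave 0.1769 and -0.4469 for the other 2 contrasts, and taking out the rRNA-related genes gave 0.3485 and -0.1698. The mitochondrial difference, p21mTert minus p21Het, was 0.2822 in the later deposit. The cause was not tested in any of these.

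Leaving out 1 library at a time, the differences ran as follows, in the same order of contrasts. Share of cells ran from -3.288 to 0.3163, from 0.3446 to 2.534 and from -4.727 to -1.123 points. Log2 non-globin UMIs ran from -0.5006 to 0.5763, from -0.2901 to 0.1827 and from -0.4469 to 0.63. Beta share ran from -0.8962 to 0.51, from -0.1875 to 0.7208 and from -1.209 to 0.1969 points. Mitochondrial share ran from -1.798 to 0.623, from 0.814 to 1.361 and from -2.953 to -0.5318 points. Called genes ran from 0 to 3, from 0 to 1 and from 0 to 0; where 1 p21Het or p21mTertCD library remained, it was assumed to vary like the other groups.

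For p21mTert minus p21Het, DESeq2 called 4 genes, no filter on low counts 16, and 0 were called at 80% globin, with a term for deposit, in the later deposit, without members at 20 or more other-lineage UMIs and without the rRNA-related genes. No filter gave 7 calls for p21mTert minus p21mTertCD and 2 for p21mTertCD minus p21Het. Alas2 (log2, p21mTert minus p21Het) was 0.26 with no scaling beyond library size and 0.06 at 80% globin. The fit without members at 5 or more other-lineage UMIs was not run, since only 2 libraries kept the minimum of 20 members. The alternatives at 20 or more, without rRNA-related genes and with p21Het replicate 1 kept were chosen after seeing the data.

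Same-numbered libraries had correlated deviations of 0.154, -0.287, -0.062 and -0.064. With so few fitted libraries in p21Het and p21mTertCD, deviations from the group mean mirror each other within those groups. These values therefore cannot show whether the replicate numbers pair the libraries. Several fitted libraries, most of them p21mTert, have no partner with the same number in its title. Contrasts within replicate blocks thus rest on the few libraries that have a partner. Little spread is left there to estimate error. The block results below are therefore not stronger evidence than the main fit. With the replicate block, edgeR called 53 genes (51 lower) for p21mTert minus p21Het, 3 for p21mTert minus p21mTertCD and 0 for p21mTertCD minus p21Het. With the block edgeR also called Isg15 (adjusted p = 0.0007029), Rsad2 (adjusted p = 0.0218) and Scgb1a1 (adjusted p = 0.01284). Of the 64 erythroid genes, 7 were then called for p21mTert minus p21Het, against 53 of all 1446 genes. In the main edgeR fit 0 of the 64 were called. In that contrast 37.5% had an unadjusted p under 0.05, against 11.96% of all genes. Over the 3 contrasts, in the order given above, the medians of the erythroid genes were -0.58, -0.55 and 0.04, against -0.05, 0.13 and -0.23 over all genes. The block gave -0.3114 for log2 non-globin UMIs and 0.1218 points for the mitochondrial share, p21mTert minus p21Het.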

Other observations

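The 83 ribosomal protein genes made up 5.13% ± 2.26 (SD, n = 8) of the erythroid cells' non-globin UMIs in the later deposit, against 16.3% ± 2.04 in barcodes with under 5% globin. With Gm42418, AY036118 and Lars2 taken out of the total, the values were 9.81% ± 2.25 and 17.8% ± 1.80. The share was 9.38% in p21mTert replicate 4 and 7.85% in p21mTert replicate 5, and 3.19% to 5.00% in the other later libraries.

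Per 1000 globin UMIs, Gm42418 had 89.4 ± 54.2 UMIs (SD, n = 8) in the later deposit, with the lowest value, 38.9, in p21mTert replicate 4 and the highest in p21Het replicate 2. It had 7.91 to 15.4 in the first deposit. Alas2 on the same scale ran from 2.18 to 4.60 over all 11 libraries, with the highest value in p21Het replicate 2.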
